A study of Rattus norvegicus with 8 samples.

Results

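The cilium and basal body genes of the rat pineal gland were described across 8 RNA-seq libraries, with genes of the motile axoneme and of the primary cilium taken apart. Members were taken by gene symbol alone: all Ift, Bbs, numbered Cep, Dnah, Dnai, Tekt, Rsph and Rfx symbols, with Dnali1, Tctn1 to Tctn3, Tmem67, Rpgr-named genes, Foxj1, Enkur, Spag6, Spag16 and Spag17. The choice gave 47 of the 16932 transcripts deposited (16462 symbols), 1 transcript for each gene. Of these, 15 encode parts of the motile axoneme, 7 intraflagellar transport proteins, 6 Bardet-Biedl proteins, 4 proteins of the transition zone, 9 centrosome and basal body proteins and 6 RFX transcription factors. The 17 intraflagellar transport, Bardet-Biedl and transition zone genes are called primary cilium members here. The name is a label by symbol and does not mean that they act in primary cilia alone. Foxj1, Spag17 and Tctn3 were not analysed here.

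The study followed the gland of Sprague-Dawley rats through development and across the day; per the labels, lights were on for 14 h and off for 10 h a day. Each library is a single pool of glands, so there is 1 library for each age and time. The pools held 15 animals at mid-night (zeitgeber time 19) and 13 at mid-day (zeitgeber time 7) at embryonic day 21 (E21), 19 at mid-night and 17 at mid-day at postnatal day 5 (P5), 10 at mid-night and 13 at mid-day at P20, and 3 at each time at P40. The labels name no genotype and no treatment other than the light cycle. Values are FPKM, that is, sequenced fragments per transcript divided by transcript length and library size, so that levels can be set side by side between genes.

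A cilium is a microtubule-based projection that grows from a basal body, which in a primary cilium is the former mother centriole. A motile cilium beats by means of dynein arms, radial spokes and a central apparatus, and is found in the brain on ependyma and choroid plexus. A primary cilium lacks these parts and senses signals; it is built by intraflagellar transport, served by the BBSome, a coat for membrane cargo, and gated at its base by the transition zone. Pinealocytes are related to retinal photoreceptors, whose outer segment is a modified primary cilium. RFX factors bind a DNA element called the X-box in the promoters of many ciliary genes.

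Pinealocyte markers were present in all libraries: 12 of 12 were at or above 1 FPKM in 7 libraries and 11 of 12 in the E21 mid-day library. Relative depth, set to 1 for the deepest library (P40 mid-night), was as low as 0.411 (P20 mid-day), and 8598 to 9533 transcripts reached 1 FPKM. The P5 mid-night library stood apart. It held the highest value of 15 of 16 choroid plexus markers, whose summed level was 18511 FPKM there, against 3262 FPKM at P5 mid-day and 622 to 1466 FPKM in the other 6 libraries. None of these 16 markers was at 0 in either P5 library. Transthyretin (Ttr), the main secreted protein of choroid plexus, was at 17323 FPKM there and makes up most of that sum, and the median marker was at 53.4 FPKM in the P5 mid-night library, against 14.4 FPKM at P5 mid-day and 1.59 to 5.33 FPKM elsewhere. Calls for P5 against E21 and for P20 against P5 are therefore given with and without it.

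Promoter sequences of members from both kinds of cilium are shown because they share a letter pattern that the choice of members did not use. RefSeq holds a promoter window (250 bases before to 50 bases after the transcription start, build GRCr8) for 37 of the 47 members. The X-box core GTTGCC, searched on both strands, stood in 18 of these 37 windows (48.6%), against 12.2% of all 33469 rat promoter windows. It stood in 8 of 12 windows of primary cilium members (66.7%), 5 of 11 of motile axoneme members (45.5%), 3 of 5 of RFX factors (60%) and 2 of 9 of centrosome members (22.2%). The full X-box, a longer pattern that can contain the core, was searched in a fixed form only, with no change of spacing and no mismatch. That form was in 0 of 37 member windows and in 0.472% of all windows. Looser forms were not searched, so the count does not show that members lack a full X-box. The forkhead pattern TGTTTAC was in 2 of 37 member windows (5.41%, Dnali1 and Tekt3), against 3.78% of all windows. The windows were taken as RefSeq places the start, which was the outer end of the gene for 16 of the 37, and a match is a description of letters only. The 250 bases upstream of the start follow for 3 motile axoneme members and 2 primary cilium members, 5′ to 3′ on the gene's strand, with the core in capitals (GTTGCC, or GGCAAC where it lies on the other strand). Tekt1 is at chr10:57479122-57479371 (minus strand), Tekt2 at chr5:143907725-143907974 (minus), Spag6 at chr11:97677590-97677839 (plus), Bbs5 at chr3:74818390-74818639 (plus) and Ift88 at chr15:35688737-35688986 (plus).
Tekt1: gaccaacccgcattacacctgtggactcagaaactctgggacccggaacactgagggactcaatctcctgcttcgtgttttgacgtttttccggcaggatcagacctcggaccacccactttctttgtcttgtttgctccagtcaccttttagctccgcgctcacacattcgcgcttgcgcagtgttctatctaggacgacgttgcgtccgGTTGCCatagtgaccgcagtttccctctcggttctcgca
Tekt2: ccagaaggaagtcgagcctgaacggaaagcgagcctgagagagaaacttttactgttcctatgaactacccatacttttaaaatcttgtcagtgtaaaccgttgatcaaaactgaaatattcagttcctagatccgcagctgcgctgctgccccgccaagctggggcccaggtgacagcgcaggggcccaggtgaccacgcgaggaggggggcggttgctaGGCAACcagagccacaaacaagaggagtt
Spag6: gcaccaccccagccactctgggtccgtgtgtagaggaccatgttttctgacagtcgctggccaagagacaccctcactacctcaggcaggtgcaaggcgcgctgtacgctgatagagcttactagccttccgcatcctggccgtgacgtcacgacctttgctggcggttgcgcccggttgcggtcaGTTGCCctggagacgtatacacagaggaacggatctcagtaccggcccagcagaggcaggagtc
Bbs5: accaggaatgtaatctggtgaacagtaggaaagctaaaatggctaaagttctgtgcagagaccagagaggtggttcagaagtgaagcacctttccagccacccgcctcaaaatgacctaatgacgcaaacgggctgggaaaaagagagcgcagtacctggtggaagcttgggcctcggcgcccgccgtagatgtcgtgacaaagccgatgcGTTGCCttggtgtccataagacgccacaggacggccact
Ift88: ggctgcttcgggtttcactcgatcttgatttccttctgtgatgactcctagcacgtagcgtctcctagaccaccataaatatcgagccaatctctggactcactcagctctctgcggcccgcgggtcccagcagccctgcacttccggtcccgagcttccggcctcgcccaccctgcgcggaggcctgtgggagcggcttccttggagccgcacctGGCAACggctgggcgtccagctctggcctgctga
The core begins 39 bases before the start in Tekt1 and in Bbs5, 29 bases before it in Tekt2, 34 in Ift88 and 64 in Spag6. These 5 genes did not share a profile across the libraries: the 3 motile axoneme genes were highest at P5 mid-night and at 0.262 FPKM or less at P20 and P40, whereas Bbs5 and Ift88 stayed above 2 FPKM in all 8 libraries, as described next.

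The motile axoneme members were expressed at a low level, were highest at P5 and were close to absent at P20 and P40. The median of the 15 genes at mid-night was 0.366, 1.65, 0.196 and 0.143 FPKM at E21, P5, P20 and P40, against 0.116, 0.545, 0.0775 and 0.0591 FPKM at mid-day. At mid-night 4, 10, 1 and 0 of the 15 reached 1 FPKM at these ages, against 2, 7, 0 and 0 at mid-day. The P5 mid-night library held the highest value of 12 of the 15. In the same libraries the median of the 17 primary cilium members lay between 4.20 FPKM (P40 mid-night) and 8.42 FPKM (P5 mid-night). In bulk tissue, fewer cells of a type and less RNA per cell cannot be told apart.

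**Figure D1:**
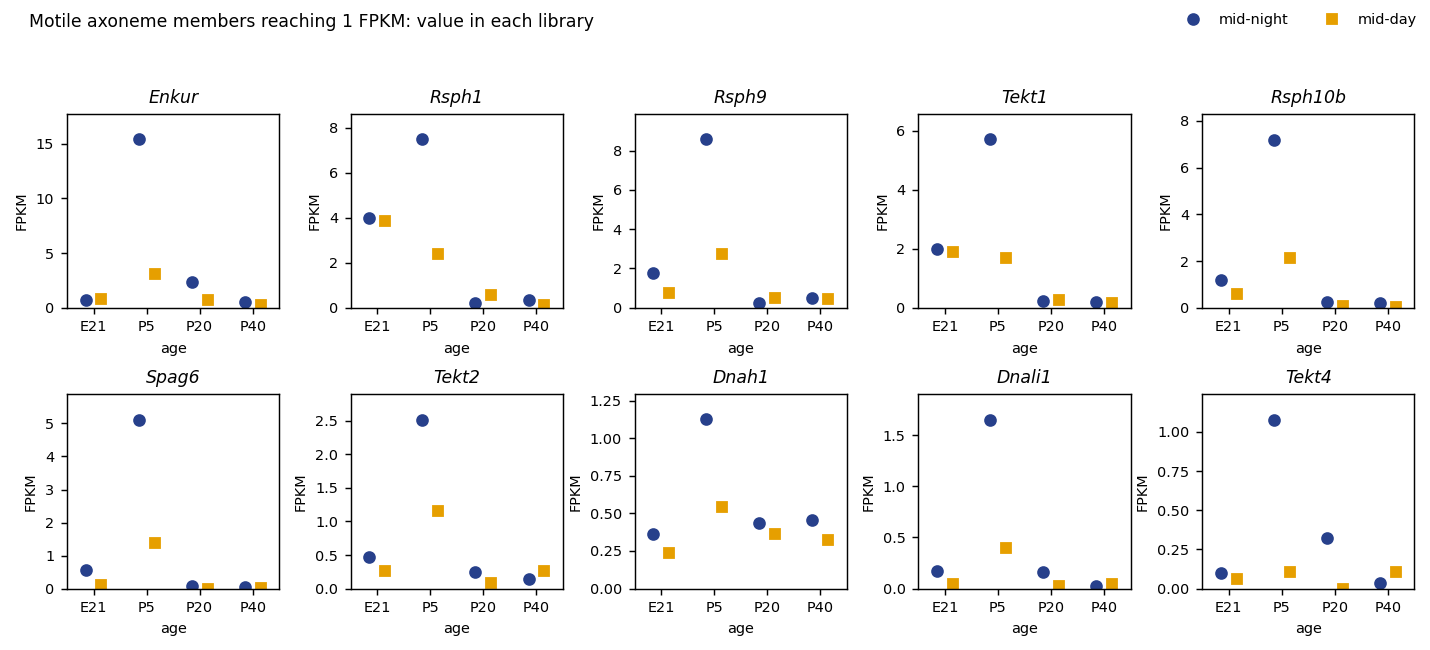
FPKM of the 10 motile axoneme members that reached 1 FPKM in any library, by age, with 1 point for each pooled library (circles mid-night, squares mid-day). The P5 mid-night library holds the highest value of all 10, and Dnah1, Dnali1 and Tekt4 reached 1 FPKM in no other library. Rsph1 and Tekt1 were already at 1.88 to 4.0 FPKM at E21.

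Enkur, which encodes enkurin of the motile axoneme, had the highest mean of the class (rn4 chromosome 17, 95178267 to 95201846). Its level at mid-night was 0.692, 15.4, 2.35 and 0.500 FPKM at E21, P5, P20 and P40, against 0.839, 3.09, 0.734 and 0.209 FPKM at mid-day. Both P5 libraries lay above both E21 libraries and above all later ones.

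The radial spoke head genes came next. Rsph1 had 4.0, 7.48, 0.196 and 0.364 FPKM at mid-night at the 4 ages, against 3.87, 2.40, 0.554 and 0.119 FPKM at mid-day, so that E21 and P5 overlapped and both stood far above P20 and P40. Rsph9 had 1.77, 8.58, 0.257 and 0.503 FPKM at mid-night, against 0.768, 2.76, 0.490 and 0.443 FPKM at mid-day. Rsph10b had 1.19, 7.20, 0.250 and 0.186 FPKM at mid-night, against 0.582, 2.11, 0.0775 and 0.0141 FPKM at mid-day. For Rsph9 and Rsph10b both P5 libraries exceeded both E21 libraries. Rsph9 overlaps another annotated transcript, so its reads could be split.

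The tektins, filament proteins inside the doublet microtubules, differed in level. Tekt1 had 2.0, 5.70, 0.242 and 0.203 FPKM at mid-night, against 1.88, 1.69, 0.249 and 0.154 FPKM at mid-day, again with E21 and P5 overlapping. Tekt2 had 0.468, 2.51, 0.245 and 0.143 FPKM at mid-night, against 0.268, 1.16, 0.0758 and 0.262 FPKM at mid-day. Tekt4 reached 1.07 FPKM at P5 mid-night, against 0.105 FPKM at P5 mid-day, and lay at 0.322 FPKM or less in the other 6 libraries. Tekt3 and Tekt5 stayed at 0.237 FPKM or less throughout, and Tekt3 was among the few members of the class that were not higher at mid-night at P5 (0.123 FPKM at mid-night, 0.237 FPKM at mid-day).

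Spag6, a protein of the central apparatus, had 0.571, 5.09, 0.0637 and 0.0376 FPKM at mid-night, against 0.116, 1.37, 0 and 0.0163 FPKM at mid-day. Its reads may be shared with a near-identical copy: RefSeq now calls the gene of this transcript Spag6l, and the transcript deposited as Spag6l is listed at 0 in all libraries, so the value of Spag6 is uncertain. Leaving Spag6 out, 11 of 14 motile axoneme members were highest at P5 mid-night. Among dynein genes, the inner arm heavy chain Dnah1 reached 1.13 FPKM at P5 mid-night, against 0.545 FPKM at P5 mid-day, and stayed between 0.233 and 0.455 FPKM elsewhere. The inner arm light intermediate chain Dnali1 reached 1.65 FPKM at P5 mid-night, against 0.394 FPKM at P5 mid-day, and was at 0.168 FPKM or less in the other libraries; it too overlaps another transcript. The outer arm intermediate chains Dnai1 and Dnai2 peaked in the same library at 0.656 and 0.645 FPKM. Spag16 alone peaked at P40 mid-night, at 0.346 FPKM.

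Age was tested with limma on log2(FPKM + 1), with time of day as a term. The test took in the 9960 transcripts that reached 1 FPKM in 2 or more libraries, and p-values were adjusted over all of them. Of the 47 members 37 entered, 7 of them motile axoneme members that entered mostly through P5, where they were high, so their shares are no evidence on the class. With only 1 pooled library for each age and time, p-values measure only the spread between these libraries. Log2 changes on this scale understate the change of genes near or under 1 FPKM. By the F test over the 4 ages 14 of the 37 members passed (37.8%), where 36.4% of all transcripts tested did. They were the 7 motile axoneme members, 4 primary cilium members (Bbs1, Bbs5, Tmem67 and Rpgr), Cep55, Cep78 and Rfx3.

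For P5 against E21, 6 members rose and 1 fell, where 8.29% of all transcripts tested rose and 6.84% fell (15.1% in either direction). The rises were in Enkur (log2 change 2.21 ± 0.44 SE, limma adjusted p = 0.0149), Spag6 (1.52 ± 0.31, adjusted p = 0.0174), Rsph10b (1.44 ± 0.30, adjusted p = 0.0173), Rsph9 (1.44 ± 0.35, adjusted p = 0.032), Tekt2 (1.01 ± 0.22, adjusted p = 0.0222) and the BBSome gene Bbs1. Rsph1 and Tekt1 did not pass (0.12 ± 0.36, adjusted p = 0.85, and 0.53 ± 0.33, adjusted p = 0.306). These are the motile axoneme genes with the highest levels at E21. At P5 mid-day Rsph1 (2.40 FPKM) and Tekt1 (1.69 FPKM) lay below both E21 libraries (3.87 to 4.0 and 1.88 to 2.0 FPKM). Only their P5 mid-night values were higher. Their E21 mid-night and mid-day libraries were alike, with night over day ratios of 1.03 for Rsph1 and 1.07 for Tekt1. Among the genes that passed, Rsph9, Rsph10b, Tekt2 and Spag6 had E21 ratios of 2.30, 2.05, 1.75 and 4.94, whereas Enkur, with the largest rise, had a ratio of 0.825. Without the P5 mid-night library no member passed for P5 against E21, where 6.36% of all transcripts tested still did, and the log2 changes were 1.40 for Enkur (limma adjusted p = 0.0696), 0.89 for Rsph10b (0.0681) and 0.84 for Rsph9 (0.161). Spag6 and Tekt2 were then below the filter and were not tested. In every other library left out singly from E21 or P5 the count was 1, 2 or 4: 1 without E21 mid-night, 2 without E21 mid-day and 4 without P5 mid-day, where 8.87%, 5.85% and 4.41% of all transcripts tested were called.

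For P20 against P5, 7 members fell and 0 rose, where 5.99% of all transcripts tested fell and 1.02% rose (7.02% in either direction). Of the 7, 6 were motile axoneme members: Rsph9 (log2 change −2.13 ± 0.35, limma adjusted p = 0.0152), Rsph10b (−2.12 ± 0.30, adjusted p = 0.00925), Rsph1 (−1.98 ± 0.36, adjusted p = 0.02), Spag6 (−1.88 ± 0.31, adjusted p = 0.0157), Tekt1 (−1.77 ± 0.33, adjusted p = 0.0214) and Tekt2 (−1.25 ± 0.22, adjusted p = 0.019). Enkur did not pass (−1.77 ± 0.44, adjusted p = 0.0536); its P20 mid-night value of 2.35 FPKM was close to the 3.09 FPKM of P5 mid-day. The count was 0 without the P5 mid-night library, 0 without the P20 mid-night library and 3 without the P20 mid-day library, where the share of all transcripts called was 0.355%, 0.534% and 1.93%. Without P5 mid-night the log2 changes were −1.57 for Rsph10b (limma adjusted p = 0.0523), −1.53 for Rsph9 (0.121), −1.31 for Rsph1 (0.125) and −1.13 for Tekt1 (0.104). Quantile normalization and median centring of the libraries moved the all-transcript split from 102 higher and 597 lower to 219 and 313 and to 173 and 325, and each left 6 members lower and 0 higher.

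At P5 the motile axoneme members were higher at mid-night than at mid-day, with 1 library for each time and therefore no test. On the log2(FPKM + 1) scale 6 of the 10 that reached 1 FPKM were at least 2-fold higher at mid-night, where 1.83% of 9680 transcripts were, and 0 of 17 primary cilium members were. No member was 2-fold lower, where 0.341% of these transcripts were. The ratio of mid-night to mid-day FPKM had a median of 3.39 over these 10 (2.07 to 10.2), of 1.14 over the primary cilium members (0.932 to 1.46) and of 4.08 over the 16 choroid plexus markers (1.16 to 6.00). Among the 10 motile axoneme members, Dnah1, Dnali1 and Tekt4 reached 1 FPKM at P5 only at mid-night, so they could only be higher there. Dnah1 and Tekt4 gave the ends of the range, 2.07 and 10.2. Counting all values, 13 of 15 motile axoneme members were higher at mid-night, and Tekt3 and Tekt5, both below 1 FPKM, were not. At E21, 4 motile axoneme members reached 1 FPKM, with a median ratio of 1.56 (1.03 to 2.30), and 15 choroid plexus markers did, with a median ratio of 2.65 (1.01 to 12.4).

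Genes that multiciliated cells are known for but that are no members gave similar profiles. Of 51 listed, 31 were in the deposited values, and 21 of the 31 were highest at P5 mid-night, with a median of 3.22 FPKM there, against 1.40 FPKM at P5 mid-day and 0.293 to 0.656 FPKM in the other 6 libraries. Their summed level was 141 FPKM at P5 mid-night, 72.6 FPKM at P5 mid-day and 30.1 to 84.8 FPKM elsewhere. Among the 18 tested, 8 rose for P5 against E21 and 8 fell for P20 against P5. The choroid plexus markers had 13 of 15 rising and 13 of 15 falling in the same comparisons. Of all transcripts tested, 8.29% rose for P5 against E21 and 5.99% fell for P20 against P5. Without the P5 mid-night library fewer genes of both lists were called, and fewer of all transcripts. The 15 multiciliated genes then tested had a median log2 change of 0.28 for P5 against E21, with 10 above 0 and 5 below. Their median was −0.67 for P20 against P5, with 1 above 0 and 14 below. The 15 choroid plexus markers then tested had a median of 1.82 for P5 against E21, with 15 above 0 and 0 below. For P20 against P5 their median was −2.39, with 1 above 0 and 14 below. Genes that reached 1 FPKM only at P5 entered the test through the age at which they were high. Among the multiciliated genes of high level, Mlf1 and Mns1 were instead highest at E21 mid-day (39.9 and 14.2 FPKM) and lay at 9.31 FPKM or less at P20 and P40. Sntn, a marker of mature multiciliated cells, was at 0 in all 8 libraries, and Tmem212 was at 0 in both P5 libraries. The part of choroid plexus or ependymal cells in the motile axoneme values was not tested.

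**Figure D2:**
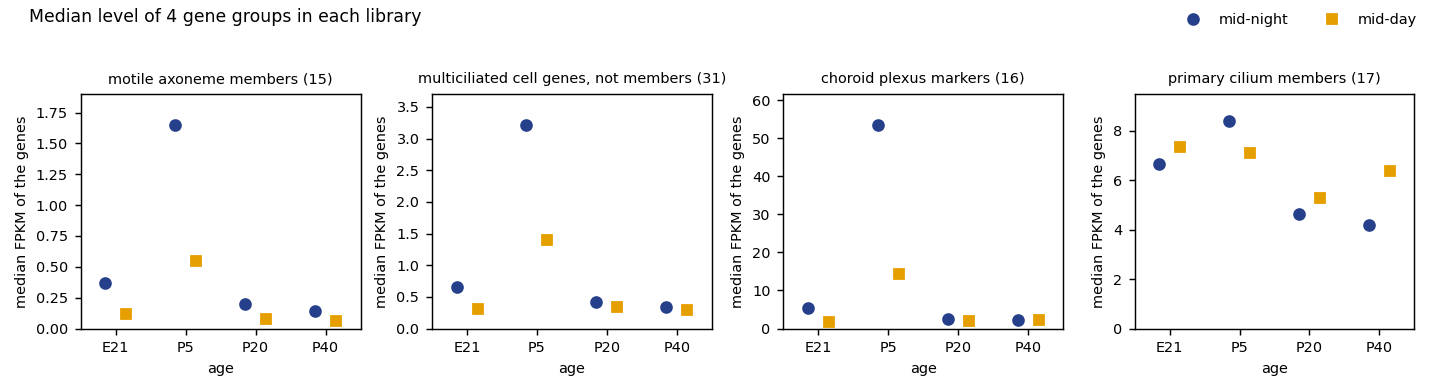
Median FPKM of 4 gene groups in each library (circles mid-night, squares mid-day), with the number of genes in each title. The 15 motile axoneme members, the 31 other multiciliated cell genes and the 16 choroid plexus markers all have their highest median in the P5 mid-night library (1.65, 3.22 and 53.4 FPKM), whereas the 17 primary cilium members stay between 4.20 and 8.42 FPKM.

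The intraflagellar transport genes were expressed at every age, with all 7 above 1 FPKM in all 8 libraries and no call for successive ages. Their median at mid-night was 6.68, 9.46, 5.49 and 5.24 FPKM at E21, P5, P20 and P40, against 12.5, 8.24, 6.67 and 6.97 FPKM at mid-day. Ift20, a subunit of complex B that also resides at the Golgi, had 16.1, 12.9, 11.8 and 11.8 FPKM at mid-night, against 19.7, 12.2, 10.1 and 9.26 FPKM at mid-day, with both E21 libraries above all later ones. Ift81, which carries tubulin together with Ift74, had 13.7, 15.6, 9.0 and 8.92 FPKM at mid-night, against 14.1, 13.1, 11.2 and 13.6 FPKM at mid-day. Its partner Ift74 had 6.68, 8.42, 5.45 and 4.20 FPKM at mid-night, against 12.5, 7.40, 4.42 and 6.31 FPKM at mid-day, and overlaps other annotated transcripts. Ift52, a core subunit of complex B, ranged from 7.90 to 13.8 FPKM with no order by age. The remaining members Ift80, Ift57 and Ift88 lay between 2.72 and 9.46 FPKM.

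The Bardet-Biedl genes held the highest member of all, Bbs4. It had 17.2, 28.6, 36.5 and 29.8 FPKM at mid-night at E21, P5, P20 and P40, against 20.6, 30.4, 28.7 and 22.7 FPKM at mid-day, so both E21 libraries were the lowest. The test gave a log2 change of 0.62 ± 0.21 for P5 against E21, which did not pass (limma adjusted p = 0.0864). Bbs1, another BBSome subunit, had 6.87, 14.5, 13.7 and 12.2 FPKM at mid-night, against 7.35, 13.5, 12.3 and 10.9 FPKM at mid-day (rn4 chromosome 1, 207503399 to 207521683). All 6 later libraries lay above both E21 libraries. Bbs1 was the only primary cilium member that rose for P5 against E21 (log2 change 0.88 ± 0.17, limma adjusted p = 0.012) and the only member that rose for P40 against E21 (0.63 ± 0.17, adjusted p = 0.018). The P5 call was lost without the P5 mid-night library (0.87, limma adjusted p = 0.0776), the P5 mid-day library (0.90, 0.0863) or the E21 mid-night library (0.78, 0.0767). The P40 call was lost without E21 mid-night (0.52, limma adjusted p = 0.125), P40 mid-night (0.58, 0.131) or P40 mid-day (0.67, 0.0839).

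The other Bardet-Biedl genes had other profiles. Bbs5 had 7.82, 6.21, 3.35 and 3.90 FPKM at mid-night, against 8.11, 6.43, 4.89 and 5.27 FPKM at mid-day, with the order E21, P5 and then the later ages free of overlap. Bbs2 ranged only from 7.99 to 12.3 FPKM. Bbs10, a chaperonin-like protein needed to assemble the BBSome, had 2.58, 4.73, 4.10 and 2.67 FPKM at mid-night, against 3.28, 3.75, 5.21 and 6.38 FPKM at mid-day. Members of 1 complex thus had different profiles: Bbs1 and Bbs4 were lowest at E21, and Bbs5 was highest there.

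The transition zone genes were highest at E21 or P5 and lower at P20 and P40. Tmem67 (meckelin, a membrane protein of the ciliary gate) had 7.47, 6.67, 3.93 and 2.65 FPKM at mid-night, against 7.29, 5.35, 5.30 and 3.20 FPKM at mid-day. Its partner Tctn1 (tectonic 1) had 6.13, 6.44, 3.93 and 3.80 FPKM at mid-night, against 4.90, 5.12, 2.83 and 4.13 FPKM at mid-day. Rpgrip1l, a scaffold of the zone, had 5.81, 5.27, 3.16 and 2.91 FPKM at mid-night, against 6.26, 4.27, 3.15 and 4.02 FPKM at mid-day. Rpgr, mutated in human X-linked retinal degeneration, had 2.13, 2.16, 0.701 and 0.781 FPKM at mid-night, against 2.52, 1.48, 0.882 and 0.970 FPKM at mid-day. In all 4 genes both E21 libraries and both P5 libraries lay above both P20 and both P40 libraries. None of the 4 passed for P20 against P5, where the lowest limma adjusted p was 0.0893 and the median log2 change −0.55, against −0.18 over all transcripts tested.

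Of the 9 centrosome and basal body members, Cep55 and Cep78 were highest at E21 and lowest at P40, and the other 7 stayed above 1 FPKM in all libraries. Cep120, a protein of centriole elongation, ranged from 9.90 to 12.9 FPKM. Cep290, which also sits in the transition zone, had 6.19, 5.31, 7.90 and 6.50 FPKM at mid-night, against 9.38, 6.60, 9.24 and 10.8 FPKM at mid-day; it overlaps another annotated transcript. Cep57 ranged from 4.61 to 9.47 FPKM, Cep63 (which overlaps another transcript) from 4.06 to 7.44 FPKM, Cep70 from 2.27 to 6.67 FPKM, Cep97 from 2.04 to 3.33 FPKM and Cep76 from 1.82 to 3.19 FPKM. Cep55, a protein of the midbody that acts in abscission at the end of cell division, had 4.48, 1.97, 0.163 and 0.0709 FPKM at mid-night, against 8.05, 1.77, 0.113 and 0.0155 FPKM at mid-day (rn4 chromosome 1, 242382809 to 242398281). Cep78, a regulator of centriole number, had 4.01, 2.77, 1.2 and 0.963 FPKM at mid-night, against 5.03, 2.13, 1.24 and 0.857 FPKM at mid-day.

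In both genes each age from E21 to P20 was below the one before without overlap. Cep55 fell for P5 against E21 (log2 change −1.30 ± 0.24, limma adjusted p = 0.0122), for P20 against P5 (−1.33 ± 0.24, adjusted p = 0.0204) and for P40 against E21 (−2.76 ± 0.24, adjusted p = 0.000168). The first of these calls was lost without E21 mid-day or either P5 library, and the second without any 1 of the 4 libraries of P5 and P20, with a pseudocount of 5, with no filter and after quantile normalization or median centring. Genes of cycling cells moved with them: the median of 22 such genes at mid-night was 11, 4.97, 0.634 and 0.709 FPKM at E21, P5, P20 and P40, against 14.1, 4.36, 0.793 and 0.754 FPKM at mid-day. Of the 20 cycling genes tested 19 fell for P40 against E21, and Top2a, which untangles replicated DNA, was at 0.579 and 0.423 FPKM at P40 mid-night and mid-day, against 29.3 and 39.1 FPKM at E21 mid-night and mid-day. The part of dividing cells in the values of Cep55 and Cep78 was not tested.

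RFX factors were led by Rfx7, with 12.5, 8.60, 8.03 and 6.22 FPKM at mid-night, against 13.1, 8.30, 8.26 and 9.02 FPKM at mid-day. Rfx5, known from the control of MHC class II genes, had 10.2, 8.04, 6.55 and 7.55 FPKM at mid-night, against 9.37, 7.29, 7.13 and 6.13 FPKM at mid-day. Rfx1 stayed between 4.58 and 6.04 FPKM. Rfx3, a known regulator of ciliary genes, had 3.32, 3.09, 1.42 and 1.54 FPKM at mid-night, against 3.88, 1.93, 1.56 and 1.52 FPKM at mid-day, with E21 and P5 above the later ages. Rfx2, another such regulator, reached 1.07 FPKM at P5 mid-night, against 0.244 FPKM at P5 mid-day and 0.113 to 0.280 FPKM in the other 6 libraries; it was the only RFX factor with the profile of the motile axoneme members and was below the filter of the test. Rfx6, a factor of pancreatic islets, was at 0.0668 FPKM or less.

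**Figure D3:**
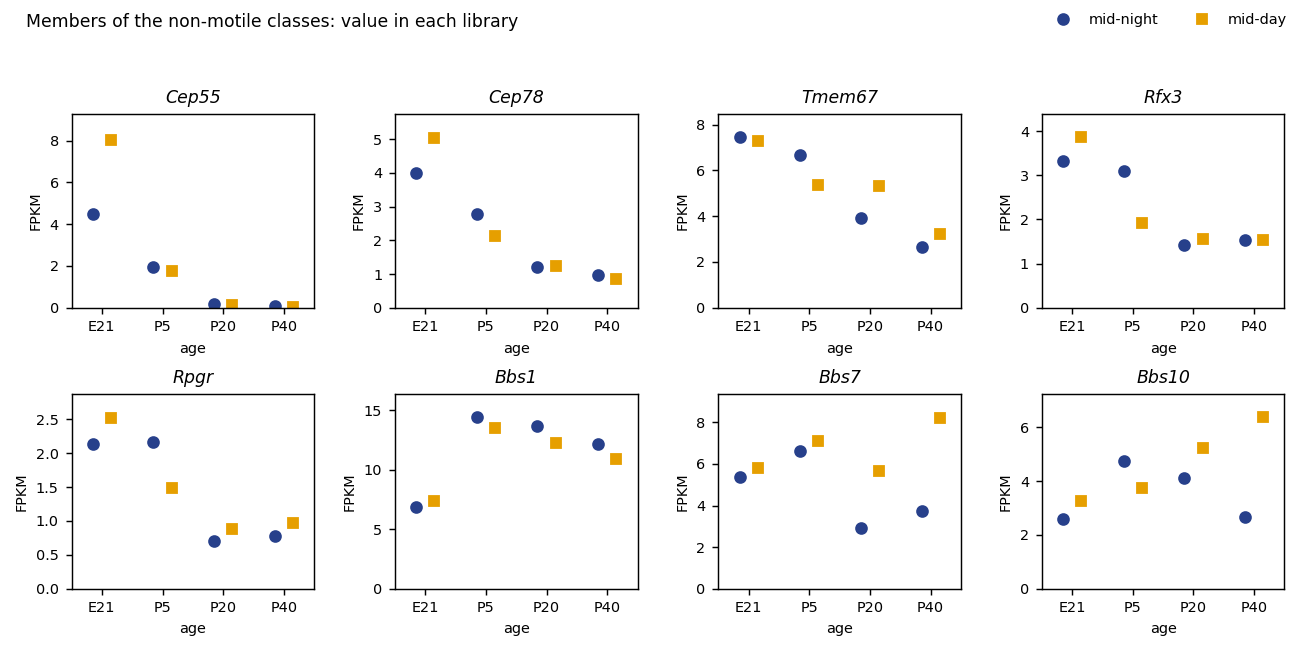
FPKM of 8 members of the other classes by age, with 1 point for each pooled library (circles mid-night, squares mid-day). Cep55 and Cep78 are lower at each age from E21 to P20, Tmem67, Rfx3 and Rpgr are lower at P20 and P40 than at E21, Bbs1 is higher at all later ages than at E21, and Bbs7 and Bbs10 have their highest values at P40 mid-day (8.24 and 6.38 FPKM).

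Over the whole span, P40 against E21, 12 members fell and 1 rose, where 26.8% of all transcripts tested fell and 16.1% rose. The share of members that passed in either direction (35.1% of 37) lay near that of all transcripts (42.9%). The 37 members had a median log2 change of −0.39, against −0.18 over all transcripts; the primary cilium members had −0.31. After Cep55, the largest falls were in Rsph1 (−2.0 ± 0.36, limma adjusted p = 0.00367), Cep78 (−1.53 ± 0.20, adjusted p = 0.000866), Tekt1 (−1.32 ± 0.33, adjusted p = 0.0144) and Tmem67 (−1.10 ± 0.21, adjusted p = 0.00437). Rfx3, Rpgr, Cep70, Ift20, Rfx7, Bbs5 and Rpgrip1l fell by 0.86 to 0.67 on the log2 scale (limma adjusted p 0.0137 to 0.0309). Of the motile axoneme members that rose at P5, none passed between P40 and E21 (limma adjusted p 0.0705 to 0.531, log2 changes −0.76 to −0.18). Rsph10b passed with a pseudocount of 0.1 (log2 change −2.38, limma adjusted p = 0.00328) and without P5 mid-night or without P5 mid-day (−0.76 each, adjusted p 0.0147 and 0.0156). Median centring of the libraries moved the all-transcript split from 1602 higher and 2674 lower to 2175 and 2004, and left 1 member higher and 9 lower. Fewer members were called without P40 mid-night, E21 mid-day or P40 mid-day, and a smaller share of all transcripts was called there too. The falls of Cep55, Cep78, Rsph1 and Tmem67 passed under every alternative in which they were tested.

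For P40 against P20, no member passed and none of the 9960 transcripts did (0% called) by limma; 1 of 37 members and 669 of all transcripts had an unadjusted p under 0.05. The single member was Tmem67, at 2.65 and 3.20 FPKM at P40 mid-night and mid-day, against 3.93 and 5.30 FPKM at P20 mid-night and mid-day.

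**Figure D4:**
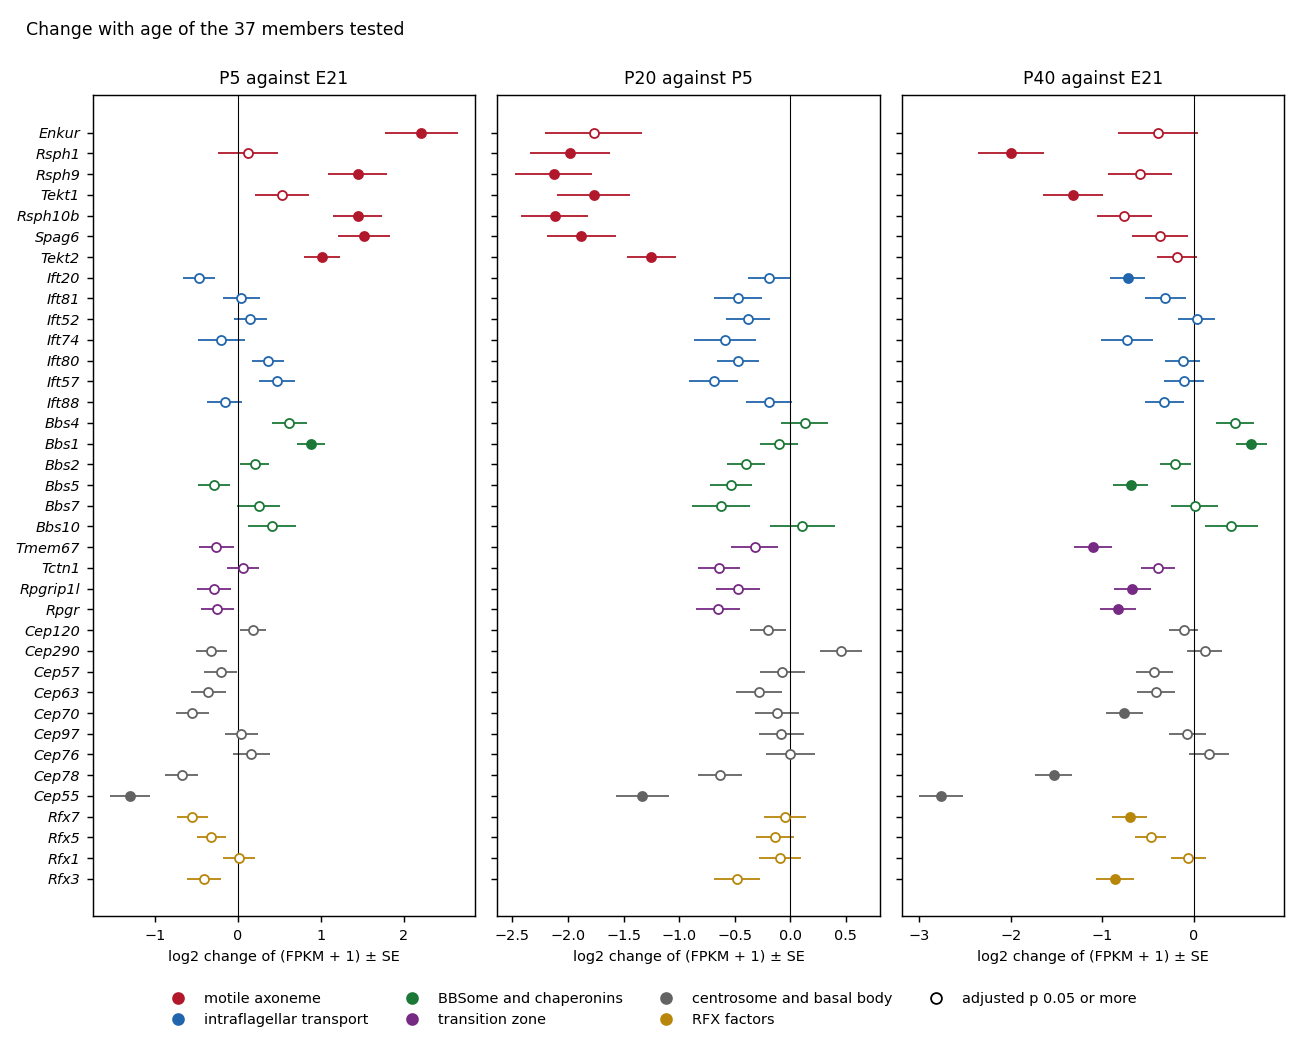
Log2 change of (FPKM + 1) with its SE for the 37 members tested, in 3 comparisons of ages; filled points passed limma's adjusted p threshold of 0.05 and colours mark the classes. The largest rise at P5 is in Enkur (2.21) and the largest fall at P20 in Rsph9 (−2.13), both motile axoneme genes. The motile axoneme members entered the test mostly through P5, where they were high, so their place here is no evidence on the class. Cep55 has the largest fall for P40 against E21 (−2.76).

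Night and day were tested over P20 and P40 together, since each single age has 1 library for each time. Bbs7, a BBSome subunit, was the only member that passed, and it fell (log2 change −0.87 ± 0.16, limma adjusted p = 0.027), where 1.59% of all transcripts tested fell and 2.8% rose (4.39% in either direction). Its level was 2.91 FPKM at P20 mid-night, against 5.67 FPKM at P20 mid-day, and 3.75 FPKM at P40 mid-night, against 8.24 FPKM at P40 mid-day (rn4 chromosome 2, 123070273 to 123109862). At the younger ages the times were close, with 5.38 FPKM at mid-night and 5.81 FPKM at mid-day at E21 and 6.63 FPKM at mid-night and 7.11 FPKM at mid-day at P5. The call was lost in 10 of 15 alternatives (limma adjusted p up to 0.197, log2 changes −1.03 to −0.51), among them without any single library other than E21 mid-day. Bbs10 had a change of −0.65 ± 0.23 that did not pass (limma adjusted p = 0.167). Of the 17 primary cilium members 13 had a negative change, with a median of −0.18, against −0.11 over all transcripts tested.

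The night effect at P20 and P40 minus that at E21 and P5 passed for no member, where 0.753% of all transcripts passed by limma (0.612% higher and 0.141% lower); 3 of 37 members had an unadjusted p under 0.05, and the lowest limma adjusted p was 0.202 (Rsph9). Bbs7 had a difference of −0.77 ± 0.23 (limma adjusted p = 0.222), so its night effect was not shown to differ between older and younger glands. At P40 alone, 1 of 16 primary cilium members with at least 1 FPKM was at least 2-fold lower at mid-night on the log2(FPKM + 1) scale, where 1.53% of 9091 transcripts were. It was Bbs10 (difference −1.01), and Bbs7 lay just inside 2-fold (−0.96); none was 2-fold higher, where 3.4% were. At E21 no member was 2-fold apart, where 0.868% of 9567 transcripts were higher and 1.52% lower at mid-night, and none at P20, where 2.76% of 9088 were higher and 3.06% lower.

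**Figure D5:**
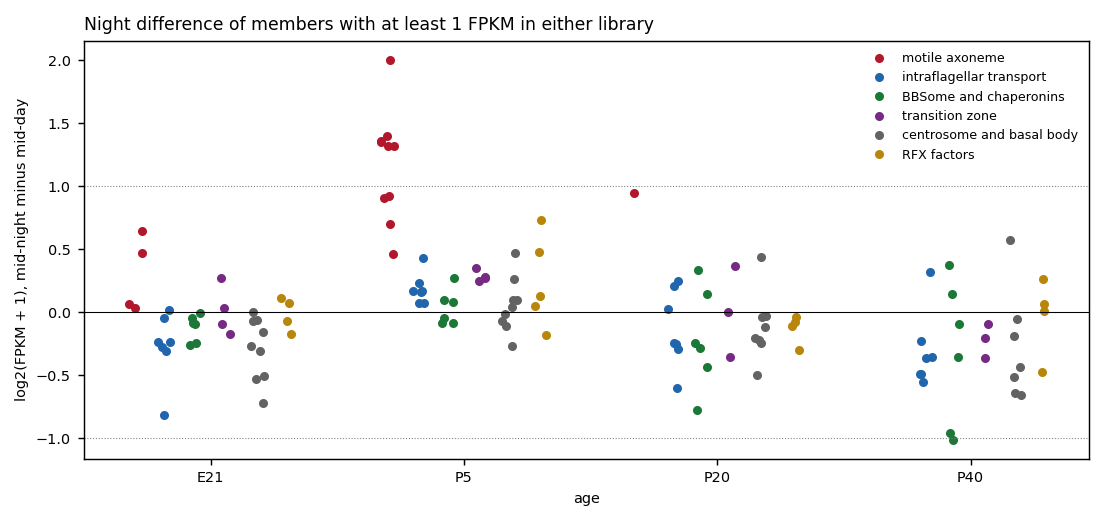
Difference of log2(FPKM + 1), mid-night minus mid-day, at each age for the members with at least 1 FPKM in either library; dotted lines mark 2-fold and colours the classes. At P5 the 10 motile axoneme members shown lie above 0 and 6 of them above the upper line, whereas the primary cilium members lie near 0. Dnah1, Dnali1 and Tekt4 reached 1 FPKM at P5 only at mid-night, so they could only lie above 0. Bbs10 is the only member beyond the lower line, at P40, with Bbs7 just inside it.

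Other genes of the same structures, which the choice by symbol did not reach, were counted for comparison. Of 40 other primary cilium genes tested, 2 rose and 6 fell for P40 against E21, 3 rose and 1 fell for P5 against E21, and none passed for P20 against P5, where 8 had an unadjusted p under 0.05 by limma. The shares for P40 against E21 (5% and 15%) were below those of all transcripts tested (16.1% and 26.8%), and the share that rose at P5 (7.5%) was near that of all (8.29%). The rises at P5 were in Tulp1 (log2 change 2.65 ± 0.24, limma adjusted p = 0.000896), which is expressed in photoreceptors, in Ahi1 (1.08 ± 0.18, adjusted p = 0.00813) and in Unc119 (0.97 ± 0.25, adjusted p = 0.0369). Without the P5 mid-night library Tulp1 and Ahi1 still passed, and Unc119 did not (0.94, limma adjusted p = 0.158). Of 17 other basal body and centriole genes tested, 11 fell (64.7%, where 26.8% of all transcripts did) and 0 rose for P40 against E21, led by Plk4, the kinase that starts centriole duplication (−2.34 ± 0.21, limma adjusted p = 0.000192). At night at P20 and P40, Fam161a, a protein of the photoreceptor cilium, rose (1.74 ± 0.18, limma adjusted p = 0.00248). So did the BBSome subunit Ttc8 (0.89 ± 0.18, limma adjusted p = 0.0365), opposite in sign to Bbs7. These were 2 of the 40 other primary cilium genes tested (5%), where 2.8% of all transcripts tested rose. Results for Fam161a and Ttc8 under other settings are not given here.

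Older symbols of genes whose current RefSeq names fit the choice are carried by 26 transcripts, which were not counted as members; 5 of them also stand in the lists above. Of the 23 tested, 1 rose and 8 fell for P40 against E21 (4.35% and 34.8%, against 16.1% and 26.8% of all transcripts tested). For P5 against E21, 2 rose (8.7%, against 8.29%), and for P20 against P5, 4 fell (17.4%, against 5.99%); without the P5 mid-night library none of 22 passed in either comparison, where 5 and 3 had an unadjusted p under 0.05 by limma. Both rises at P5 were in dynein intermediate chain genes, Wdr63 (now Dnai3, log2 change 1.39 ± 0.26, limma adjusted p = 0.0118) and Wdr78 (now Dnai4, 0.92 ± 0.26, adjusted p = 0.0499). Wdr63 had 0.282, 3.56, 0.423 and 0.174 FPKM at mid-night, against 0.111, 1.15, 0.0582 and 0.139 FPKM at mid-day, highest at P5 mid-night like most motile axoneme members; only its P5 libraries reached 1 FPKM, so it entered the test through the age at which it was high. Tect2 (now Tctn2), a partner of Tctn1, fell for P20 against P5 (−1.09 ± 0.17, limma adjusted p = 0.0142; −1.01, adjusted p = 0.148 without P5 mid-night) and had 6.21, 8.83, 3.55 and 3.36 FPKM at mid-night, against 5.80, 7.03, 2.85 and 3.18 FPKM at mid-day.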

How the data were processed

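Total RNA of pooled rat pineal glands was sequenced, with 1 library for each age and time of day (8 libraries). Per the submitters' processing notes, TopHat 1.3.1, Cufflinks 1.2.0 and genome build rn4 were used, and the deposited FPKM, made by the authors, number 1 per RefSeq transcript. Strand handling, filters and further scaling are not given in the sources used here. Read totals were not used here, so relative depth was taken from the smallest steps between FPKM values of short olfactory receptor transcripts, and no counting intervals are given. Spans are printed 1-based, since 1191 of 1197 olfactory spans are multiples of 3 with a start counted from 0.

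Here, log2(FPKM + 1) was fitted with limma 3.58.1 (R 4.3.3) over 9960 transcripts that reached 1 FPKM in 2 or more libraries, unscaled. The variance prior followed a trend, tests were two-sided, and calls were made at a Benjamini-Hochberg adjusted p under 0.05. Fit 1 modelled age plus time of day (residual degrees of freedom 3, prior 4.816). Fit 2 modelled age plus 1 night effect each for E21 with P5 and for P20 with P40 (2 residual, prior 5.659). The script was tested on simulated data. Single ages were described by 2-fold counts on the same scale without a test.

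The members, lists and tests were chosen with earlier results of these data known, and the list of older symbols after the files were read. Values in every library are given for the 4 members of highest mean in each class, the 5 largest changes past each test, motile axoneme members reaching 1 FPKM and members past a night test. Further members and genes outside the classes were named once their values had been seen. Other settings tried were pseudocounts of 0.1 and 5, no filter, a filter at 5 FPKM, quantile normalization, median centring, no time of day term, and leaving out each library or both P5 libraries.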

Additional observations from a re-analysis of the deposited data

How the results depend on the processing

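Mid-night and mid-day were compared within ages through the age term, but nothing was replicated, since 1 pooled library stands for each age at each time. Leaving out 1 library left its age with a lone library assumed to vary like the other ages. With 1 library left out, a smaller share of all transcripts was called than with all libraries, in each comparison that follows. The exception was P20 against P5 without 1 of the E21 libraries, where the share was slightly larger. Swings in the member counts that follow therefore cannot be told apart from swings over all transcripts. Members called were then 9 to 13 of the 14 by the age F test, 0 to 7 of the 7 for P5 against E21, 0 to 8 against 7 for P20 against P5, 4 to 14 against 13 for P40 against E21, and 0 or 1 against 1 for night at P20 and P40. The filter at 5 FPKM, which leaves fewer members to test, gave 3 by the age F test, 1 for P5 against E21, 0 for P20 against P5 and 7 for P40 against E21. In the same order, it called 35.6%, 16.2%, 5.71% and 43.5% of all transcripts tested. For P20 against P5 a pseudocount of 5 and no filter gave 3 each, where 3.99% and 2.67% of all transcripts tested were called. The cause was not tested. For night at P20 and P40 no filter, quantile normalization and leaving out both P5 libraries gave 0 members. Of all transcripts tested, 0.752%, 4.38% and 3.05% were called there. Among all 15 motile axoneme members without a filter, 3 rose for P5 against E21 and 3 fell for P20 against P5. Of all transcripts tested without a filter, 4.48% rose and 2.25% fell in these comparisons. Quantile normalization and median centring each gave 6 members higher and 2 lower for P5 against E21, beside 6 and 1. Of all transcripts tested, they called 9.23% and 9.51% higher and 9.97% and 7.24% lower. P40 against P20 and the difference of night effects had 0 members called under every alternative run, with limma. Over the 28 changes of named members, 406 values were recomputed: 312 kept the call, 94 lost it and 0 reversed. Settings in which a member was below the filter are not among these values and do not count as lost. Some settings left out a library of an age outside the comparison. Of the 28 changes, 4 were called in every setting in which they were tested. The shallowest library, P20 mid-day, limits low values most, and motile axoneme values under 1 FPKM rest on few fragments.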
